A study of Mus musculus with 6 samples.

Results

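The p53 family and its negative regulators were followed here through 9 mouse genes: Trp53, its pseudogene Trp53-ps, the family members Trp63 and Trp73, the inhibitors Mdm2 and Mdm4, and Wrap53, Usp7 and Ppm1d. They were taken by gene name from a table of 54532 genes, and each of the 9 names matched 1 row. The cells were haploid embryonic stem cells of strain 129SV, which carry a single chromosome set, and their poly(A)-selected RNA was sequenced. There were 3 libraries of wild-type (WT) cells and 3 of p53-deficient cells, named P53ki in the sample titles, p53-negative in the genotype field and knockout in the series design. The labels do not give the altered bases, the number of clones, or whether the replicates were separate cultures. The p-values therefore rest on a spread among libraries that may be technical, and a difference between lines, clones or cultures cannot be told apart from one due to the genotype.

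p53, the product of Trp53, is a transcription factor that stops the cell cycle or starts apoptosis when DNA is damaged or the cell is otherwise stressed. In unstressed cells it is kept low by Mdm2, a ubiquitin ligase that marks it for degradation, and by Mdm4, a related protein that binds its activation domain, and p53 in turn activates transcription of Mdm2, which closes a negative feedback loop. Embryonic stem cells are known for abundant p53 protein, and loss of p53 is known to favour survival of cells in culture.

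Levels are in FPKM, that is fragments of a gene per kilobase of its length after scaling for library size, so levels of different genes are compared per length. Errors beside means are SD over 3 libraries. The number of reads assigned to genes, rebuilt from FPKM and gene length, ranged from 17065841 to 20331905 in WT and from 11536412 to 21218976 in p53-deficient libraries. Change is the difference of log2(FPKM + 1) fitted with limma, p53-deficient minus WT, and calls were made where the p adjusted over 15144 tested genes was under 0.05. The added pseudocount of 1 FPKM understates the change of low genes. In bulk RNA, fewer cells of a type and less RNA per cell cannot be told apart. Markers of embryonic stem cells were present in both groups. Their summed level was 3474 to 3541 FPKM in WT, against 2715 to 2818 FPKM in p53-deficient libraries. Most of the WT sum came from 1 of the 10 genes, Dppa5a, whose mean went from 2007 to 1075 FPKM. That fall was larger than the fall of the sum, so the sum does not describe the list as a whole. Of the 10 markers 4 were called higher, 5 lower and 1 not called, with a median level of 94.7% of WT. All of 20 fibroblast markers had p53-deficient libraries that lay below every WT library, with sums of 1252 to 1270 FPKM in WT against 229 to 248 FPKM. The values of those markers stand beside the members at the end.

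**Figure D1:**
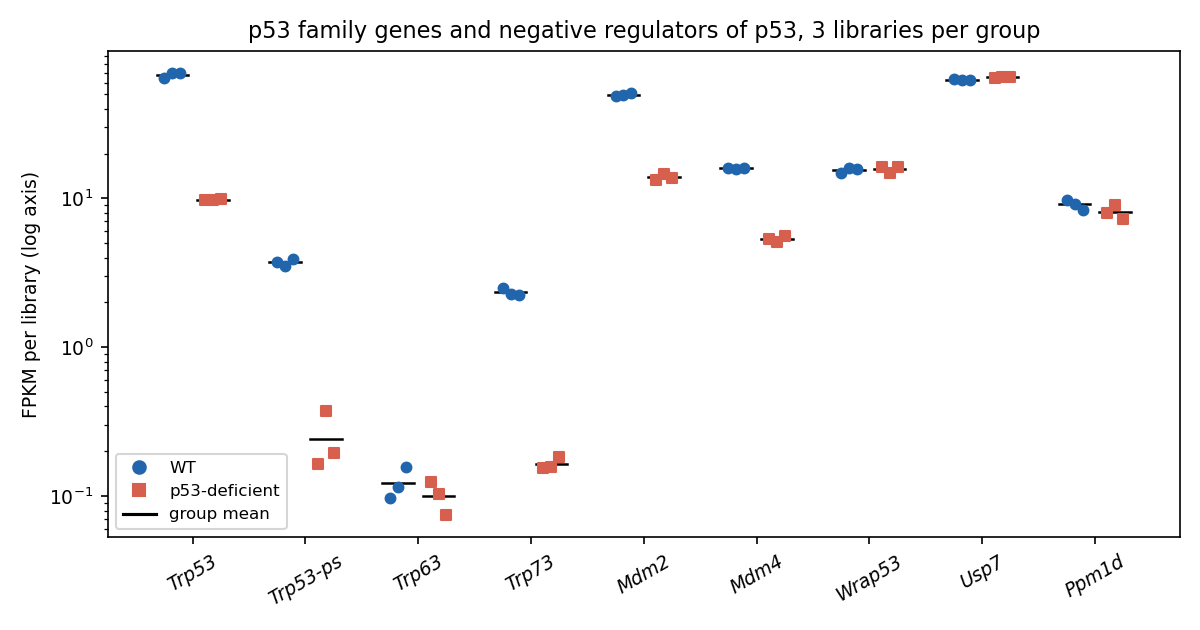
FPKM of the 9 genes in each library on a log axis, WT as blue circles and p53-deficient as red squares, with black bars at the group means of 3 libraries. Trp53, Trp53-ps, Trp73, Mdm2 and Mdm4 lie lower in each p53-deficient library, Trp63, Wrap53 and Ppm1d overlap, and the Usp7 groups lie next to each other, at 62.4 to 63.1 and 64.4 to 65.7 FPKM.

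In WT cells the gene of highest mean FPKM among the 9 was Trp53 itself, and in p53-deficient cells it was Usp7. By mean FPKM the WT order was Trp53, Usp7, Mdm2, Mdm4, Wrap53, Ppm1d, Trp53-ps, Trp73 and Trp63, and the libraries of Mdm4 and Wrap53 overlapped. Among p53-deficient libraries the order was Usp7, Wrap53, Mdm2, Trp53, Ppm1d, Mdm4, Trp53-ps, Trp73 and Trp63, and those of Trp53-ps and Trp73 overlapped. The libraries of all other neighbours in each order did not overlap. By FPKM, Trp53 thus stood at rank 1 in WT and rank 4 in p53-deficient cells, below Wrap53, its neighbour on the chromosome. The length behind FPKM is the union of exons of all transcripts, 4045 bases for Trp53 and 2062 for Wrap53. The Trp53 transcript aligned below has 1772 bases, so the order depends on the length used. In reads, Trp53 stood above Wrap53 in each p53-deficient library, at 826, 454 and 712 against 704, 353 and 592.

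Trp53 (ENSMUSG00000059552, chr11:69580359-69591873, plus strand, mm10) encodes p53. Its level was 64.5, 69.8 and 69.6 FPKM in WT, against 9.71, 9.71 and 9.98 FPKM without p53. The p53-deficient values lay close together, far under the lowest WT value, and the groups did not overlap. The mean went from 68.0 ± 3.03 to 9.80 ± 0.155 FPKM (n = 3 per group), 14.4% of WT. Trp53 fell by 2.67 on the log2(FPKM + 1) scale (SE 0.0371, limma adjusted p = 3.57e-08), and 71 of the 15144 tested genes had a larger fall. In reads this was 15865 over the WT libraries and 1992 over the p53-deficient ones, a rate of 14.4% of WT with an exact 95% interval of 13.7% to 15.1%. Such intervals cover counting error only, since reads without molecular identifiers are not independent molecules. The table holds 1 value per gene, so it does not show which exons carry the remaining reads or whether they encode a protein.

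Trp53-ps (ENSMUSG00000090704, chr17:54419680-54420841, plus strand) is a processed pseudogene, an intronless copy of the Trp53 messenger RNA inserted in another chromosome. Short reads of the gene and the copy can be mistaken for each other, so the sequences behind the 2 values are shown. Aligned with a coding Trp53 transcript of 1772 bases and 11 exons, 1154 of the 1162 bases of Trp53-ps had a partner, 1111 of them identical, an identity of 96.3%. There were 6 gaps with 16 bases in all. The alignment ran from base 167 to base 1328 of that transcript, whose coding sequence spans bases 167 to 1327, so the copy covers the coding part and little else. It crossed 9 of the 10 exon junctions, and both sequences read through the junction of exons 7 and 8 without an intron. The first pair below shows that junction from transcript sequence of GENCODE release M21 (GRCm38, the assembly also called mm10), where the gene joins chr11:69589221-69589250 to chr11:69589573-69589602 and the copy lies at chr17:54420409-54420468. Capitals mark the bases of exon 8, and the 60 bases differ at 1 position.
Trp53 spliced: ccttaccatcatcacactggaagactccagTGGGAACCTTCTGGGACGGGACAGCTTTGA
Trp53-ps: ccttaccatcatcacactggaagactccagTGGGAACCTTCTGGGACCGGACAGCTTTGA
The second pair is the stretch of 60 bases within exon 8 where gene and copy differ most, chr11:69589629-69589688 in the gene and chr17:54420495-54420554 in the copy, both on the plus strand. Capitals mark the 8 differing bases.
Trp53: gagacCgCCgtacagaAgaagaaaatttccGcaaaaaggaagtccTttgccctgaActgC
Trp53-ps: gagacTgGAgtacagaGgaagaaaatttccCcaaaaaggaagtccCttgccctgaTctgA
The longest identical run of the pair was 106 bases. Of all stretches of 50 bases in Trp53-ps, 13.8% occur exactly in the Trp53 transcript, against 0.659% of stretches of 100 bases and 0% of stretches of 150 bases. Neither the read length nor the counting of reads with several matches is given in the sources used, so the value of Trp53-ps is uncertain.

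The level of Trp53-ps was 3.74, 3.54 and 3.93 FPKM in WT and 0.164, 0.372 and 0.195 FPKM in p53-deficient libraries. These values rest on 75, 81 and 94 reads in WT and on 4, 5 and 4 reads in p53-deficient libraries. The groups did not overlap, and the mean dropped from 3.73 ± 0.196 to 0.244 ± 0.113 FPKM (n = 3 per group), 6.53% of WT. On the log2(FPKM + 1) scale Trp53-ps fell by 1.93 (SE 0.0827, limma adjusted p = 3.29e-06), and with a pseudocount of 0.1 FPKM its log2 difference was -3.53. It reached the mean of 0.5 FPKM required for the test through its WT level alone. The 13 reads left against 250 in WT gave a rate of 5.96% of WT (95% interval 3.13% to 10.4%), below the interval of 13.7% to 15.1% for Trp53. The ratio of Trp53-ps to Trp53 was 0.0580, 0.0507 and 0.0564 in WT and 0.0169, 0.0383 and 0.0196 in p53-deficient libraries. All p53-deficient ratios were below all WT ratios, with a log2 difference of -1.24. The exact permutation test (two-sided) gave p = 0.1, the smallest that 3 libraries against 3 allow. With 0.1 FPKM added to both genes the log2 difference was -0.75, so the size of the difference depends on how the few p53-deficient reads are treated.

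Trp73 (ENSMUSG00000029026, chr4:154056253-154140208, minus strand) encodes p73, a related transcription factor that binds many of the same DNA sites as p53. Its level was 2.51, 2.27 and 2.26 FPKM in WT and 0.155, 0.156 and 0.184 FPKM in p53-deficient libraries. Each p53-deficient library held at most 18 reads of Trp73, against 240 to 257 reads in each WT library. Mean FPKM was 2.35 ± 0.143 for WT against 0.165 ± 0.0167 for p53-deficient cells (n = 3 per group), 7.04% of WT. Trp73 fell by 1.52 on the log2(FPKM + 1) scale (SE 0.0652, limma adjusted p = 3.29e-06), and its log2 difference was -3.21 with a pseudocount of 0.1 FPKM. Like Trp53-ps, Trp73 reached the mean of 0.5 FPKM required for the test through its WT level alone. In reads, 745 stood against 46, a rate of 7.08% of WT (95% interval 5.13% to 9.53%). Trp73 shares 5.06% of its exon length with the antisense gene Trp73os, which was at 0.0250 ± 0.0265 FPKM in WT, against 0.00723 ± 0.0125 FPKM without p53. The kit is not stated to mark strand, so reads of that stretch cannot be assigned to either gene.

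Trp63 (ENSMUSG00000022510, chr16:25683763-25892102, plus strand) encodes p63, the family member known for its role in stratified epithelia. It was near the limit of detection in both groups, at 0.0966, 0.115 and 0.156 FPKM in WT and 0.125, 0.103 and 0.0743 FPKM in p53-deficient libraries. The groups overlapped, with 14, 19 and 27 reads against 22, 10 and 11 reads. Trp63 did not reach the mean of 0.5 FPKM required for the test. Its read rate was 82.1% of WT with a 95% interval of 54.2% to 124%, so neither a moderate fall nor a small rise would have been detectable at this depth. Fitted without the filter, its log2 difference was -0.03 (95% interval -0.11 to 0.06, limma adjusted p = 0.576). The pseudocount of 1 FPKM is far above its level, so this narrow interval does not exclude a change of Trp63.

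Of the summed FPKM of Trp53, Trp63 and Trp73, Trp53 made up 96.5% ± 0.324 in WT and 97.4% ± 0.139 in p53-deficient libraries (n = 3 per group). Trp73 took 3.34% ± 0.349 of the sum in WT and 1.64% ± 0.141 in p53-deficient cells, and Trp63 took 0.173% ± 0.0384 and 1.00% ± 0.262. Trp53 thus held nearly all family transcript in both groups, also where its own level was 14.4% of WT. Exact runs shared between the family transcripts were short, at most 14 bases between Trp53 and Trp63, 13 bases between Trp53 and Trp73 and 23 bases between Trp63 and Trp73.

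Mdm2 (ENSMUSG00000020184, chr10:117688875-117710758, minus strand) encodes the ubiquitin ligase that targets p53 for degradation and is itself a transcriptional target of p53. It was at 49.1, 49.5 and 50.8 FPKM in WT and at 13.3, 14.6 and 13.7 FPKM in p53-deficient libraries. The groups were far apart, with no overlap. The mean went from 49.8 ± 0.890 to 13.9 ± 0.629 FPKM (n = 3 per group), 27.8% of WT, and 14586 reads stood against 3508. Mdm2 fell by 1.77 on the log2(FPKM + 1) scale (SE 0.0364, limma adjusted p = 1.67e-07), between -1.88 and -1.75 over all settings tried.

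Mdm4 (ENSMUSG00000054387, chr1:132959484-133030561, minus strand) encodes the Mdm2-related inhibitor of p53 activation, also called MdmX. Its values were 16.0, 15.7 and 16.0 FPKM in WT, against 5.30, 5.09 and 5.63 FPKM in p53-deficient libraries. The WT libraries lay close together and the groups did not overlap. The mean dropped from 15.9 ± 0.147 to 5.34 ± 0.271 FPKM (n = 3 per group), 33.6% of WT. Mdm4 fell by 1.42 on the log2(FPKM + 1) scale (SE 0.0393, limma adjusted p = 5.65e-07), and its range over the settings was -1.59 to -1.39. A copy on the X chromosome, Mdm4-ps, matches 4184 bases of Mdm4 at 94.1% identity. It was listed at 0.0356, 0.0467 and 0.0447 FPKM in WT and at 0 in all 3 p53-deficient libraries.

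The ratio of Mdm4 to Mdm2 was 0.325, 0.318 and 0.315 in WT and 0.397, 0.350 and 0.411 in p53-deficient libraries. Every p53-deficient ratio was above every WT ratio, so Mdm2 was reduced somewhat more than Mdm4, by a log2 difference of 0.27 (exact permutation test, two-sided, p = 0.1, the smallest possible with 3 against 3). The difference ranged from 0.22 to 0.34 when single libraries were left out. The longest exact run shared by the Mdm2 and Mdm4 transcripts was 20 bases.

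Wrap53 (ENSMUSG00000041346, chr11:69561758-69580255, minus strand) encodes a protein that brings telomerase RNA to Cajal bodies, and its gene was first described as an antisense neighbour of the p53 gene. In this annotation Wrap53 and Trp53 lie head to head on opposite strands with 103 bases between their starts and share no exon. The whole stretch between the annotated starts, chr11:69580256-69580358, is given as its plus strand from RefSeq (GRCm38.p6), since both genes begin at its ends. Capitals mark a p53 decamer, the sequence motif that makes up 1 arm of a p53 binding site, at chr11:69580284-69580293. Its first base lies 75 bases before the start of Trp53.
Wrap53 to Trp53: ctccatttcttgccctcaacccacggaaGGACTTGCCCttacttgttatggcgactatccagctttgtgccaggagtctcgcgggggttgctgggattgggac
The Wrap53 values were 14.7, 16.0 and 15.8 FPKM in WT and 16.2, 14.8 and 16.3 FPKM in p53-deficient libraries, and the groups overlapped. The means were 15.5 ± 0.675 and 15.8 ± 0.830 FPKM (n = 3 per group), a log2 difference of 0.02 with a 95% interval of -0.09 to 0.14 (limma adjusted p = 0.686). The sign of this difference turned negative under both other scalings and without WT replicate 1. The ratio of Wrap53 to Trp53 was 0.228, 0.229 and 0.227 in WT and 1.67, 1.53 and 1.63 in p53-deficient libraries. It was 7.06-fold higher in p53-deficient cells, a log2 difference of 2.82 (exact permutation test, two-sided, p = 0.1, the smallest possible). By FPKM, Wrap53 was thus below Trp53 in each WT library and above it in each p53-deficient library. In reads, Wrap53 was below Trp53 in every library, so its place above Trp53 depends on the gene lengths used.

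**Figure D2:**
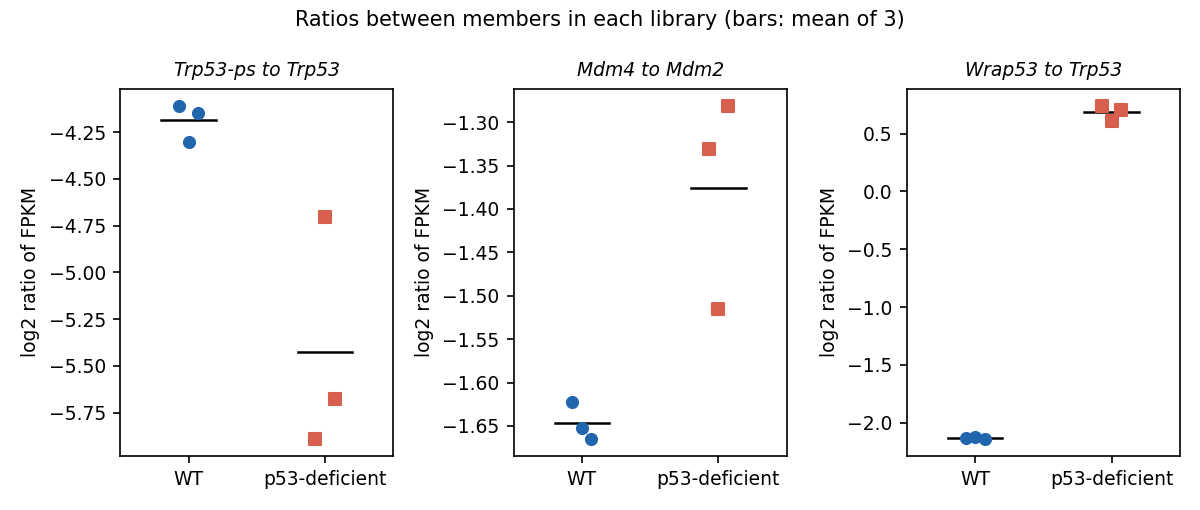
Log2 ratio of FPKM between pairs of genes in each library, from left Trp53-ps to Trp53, Mdm4 to Mdm2 and Wrap53 to Trp53, with bars at the means of 3 libraries and a separate axis for each pair. The groups do not overlap in any panel, and the mean difference is -1.24, 0.27 and 2.82.

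Usp7 (ENSMUSG00000022710, chr16:8689595-8792308, minus strand) encodes a deubiquitinase that removes ubiquitin from Mdm2 and from p53. Its level was 63.1, 62.5 and 62.4 FPKM in WT and 64.4, 65.7 and 65.4 FPKM in p53-deficient libraries. The libraries of each group lay close together, the p53-deficient ones all slightly above the WT ones. The means of 62.7 ± 0.415 and 65.2 ± 0.652 FPKM (n = 3 per group) gave a log2 difference of 0.06 (95% interval 0.01 to 0.10, limma adjusted p = 0.0451). This call was lost in 12 of 14 alternative settings, and the sign turned negative under both other scalings, at -0.04 and -0.03.

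Ppm1d (ENSMUSG00000020525, chr11:85311244-85347066, plus strand) encodes Wip1, a phosphatase that removes activating phosphates from p53 and its kinases and is known as a p53 target. It was at 9.76, 9.21 and 8.37 FPKM in WT and at 7.94, 9.03 and 7.27 FPKM in p53-deficient libraries, and the groups overlapped through p53-deficient replicate 2. The means were 9.12 ± 0.700 and 8.08 ± 0.886 FPKM (n = 3 per group). The log2 difference was -0.16 with a 95% interval of -0.36 to 0.04 (limma adjusted p = 0.136). Without p53-deficient replicate 2, the library of lowest depth, the difference was -0.23 (limma adjusted p = 0.0325). It also passed with scaling by the median log2 ratio and with voom weights, so Ppm1d lies near the threshold.

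**Figure D3:**
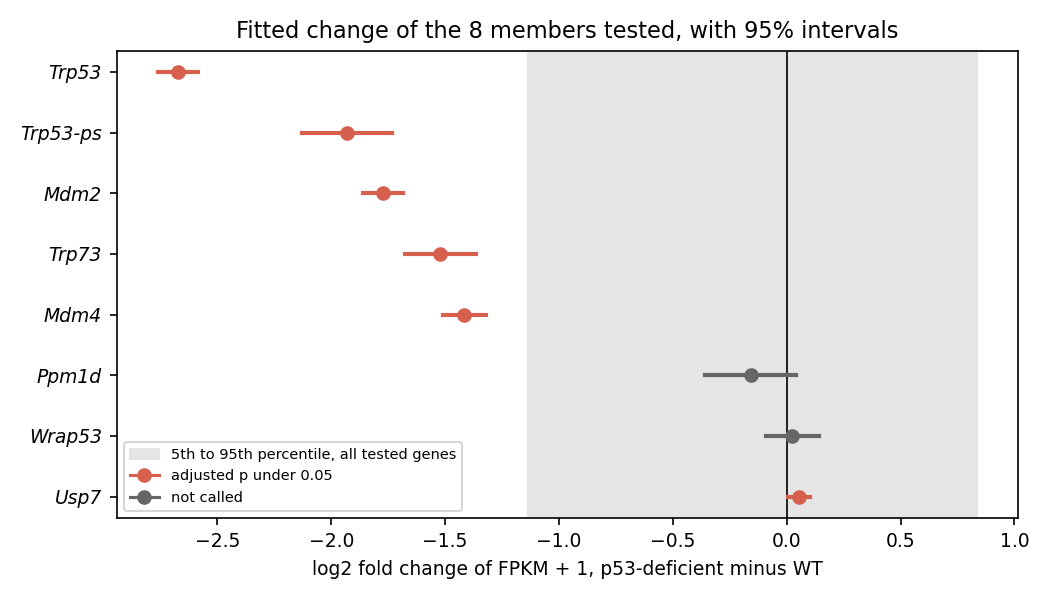
Fitted difference of log2(FPKM + 1), p53-deficient minus WT, for the 8 genes tested, with 95% intervals from limma, over a grey band from the 5th to the 95th percentile of 15144 tested genes, -1.13 to 0.84. Trp53, Trp53-ps, Mdm2, Trp73 and Mdm4 lie left of the band and Ppm1d, Wrap53 and Usp7 within it near 0; the signs of Wrap53 and Usp7 turn under both other scalings.

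Of the 9 genes, 8 reached the filter on low values, and Trp53-ps and Trp73 reached it through their WT level alone, so counts over the tested genes are a description. In the comparison as a whole 66.5% of tested genes were called, 31.3% lower and 35.3% higher. That balance depends on the scaling, since 5341 genes were higher and 4733 lower as fitted, against 4258 and 5611 once libraries were scaled by their median log2 ratio. Among the members 6 of 8 were called, 5 lower (Trp53, Trp53-ps, Trp73, Mdm2 and Mdm4) and 1 higher (Usp7), a share of calls close to that of all genes. The groups did not overlap in 71.4% of tested genes and in the same 6 members. By size, each of the 5 lower members lay below the 5th percentile of all tested genes, a log2 difference of -1.13. When genes of at least 5 FPKM alone were tested, Trp53-ps and Trp73 dropped out, Usp7 missed the threshold, and Trp53, Mdm2 and Mdm4 were the 3 members called.

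A p53 binding site is a pair of decamers, and the decamer was searched in promoter windows of RefSeq (GRCm38.p6) that run from 250 bases before to 50 bases after a start. The motif reads the same on both strands. Windows existed for 7 of the 9 genes, 10 windows in all, and 4 of them held a decamer, against 8.36% of 32851 windows of the same length. None of the 10 held a pair of decamers with a spacer of at most 13 bases, which 0.0731% of all windows did. The 4 windows belonged to Mdm2, Trp53, Wrap53 and Ppm1d, and those of Trp53 and Wrap53 share the decamer printed above. No decamer stood in the windows of Mdm4, Trp73 and Usp7 or in the other window of Wrap53. A match is a string of letters and no evidence of binding: of the 4 genes with a decamer, Mdm2 and Trp53 fell while Wrap53 and Ppm1d did not pass the test. The Mdm2 window, chr10:117710709-117711008 on the minus strand, is shown because Mdm2 is the member best known as a p53 target. Capitals mark its decamer, which begins 186 bases before the start.
Mdm2: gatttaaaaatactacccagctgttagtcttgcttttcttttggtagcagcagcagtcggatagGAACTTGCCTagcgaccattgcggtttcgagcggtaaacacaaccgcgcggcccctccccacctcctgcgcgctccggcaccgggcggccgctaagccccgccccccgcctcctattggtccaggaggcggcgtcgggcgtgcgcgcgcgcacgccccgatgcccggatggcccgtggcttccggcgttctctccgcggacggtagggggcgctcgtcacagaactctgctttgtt
This window lies at the upstream start of Mdm2. The promoter known to answer to p53 lies within the gene and is not analysed here.

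Genes acting on p53 or on its inhibitors moved in both directions and by less than Trp53 or Mdm2, with Trp53inp1 the exception. Over all tested genes 66.5% were called, 31.3% lower and 35.3% higher, so the counts of these lists are a description. Of 9 upstream kinases and their partners, which phosphorylate p53 after damage, 3 were higher, 5 lower and 1 not called, with a median log2 difference of -0.31 against 0.03 over all tested genes. The largest change there was that of Atrip, the partner of the kinase ATR, from 2.76 ± 0.213 to 3.93 ± 0.322 FPKM (limma adjusted p = 0.00238). After scaling by the median log2 ratio the kinases counted 1 higher and 5 lower. Among 12 other genes that act on p53 or Mdm2, ubiquitin ligases and deubiquitinases together with the adaptor protein gene Daxx, 6 were higher, 3 lower and 3 not called (median 0.16). Otud5, a deubiquitinase that stabilises p53, fell from 27.1 ± 0.240 to 11.8 ± 0.454 FPKM, a log2 difference of -1.13.

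Of 8 genes for inhibitors of Mdm2 or for proteins that bind such inhibitors, 2 were higher and 6 lower (median -0.15). Of all tested genes 66.5% were called. Cdkn2a, whose Arf product sequesters Mdm2 and whose other product inhibits cyclin-dependent kinases, rose from 22.7 ± 1.06 to 34.3 ± 3.44 FPKM (log2 difference 0.57, limma adjusted p = 0.000502), and the gene-level value does not part its products. Several of these 8 genes are ribosomal protein genes, a class known for many processed copies, and their values are uncertain to that extent. Among 12 enzymes that acetylate, deacetylate, methylate or isomerise p53, 6 were higher, 3 lower and 3 not called (median 0.16). Sirt1, a deacetylase of p53, rose from 14.4 ± 0.341 to 30.3 ± 0.983 FPKM (log2 difference 1.03). Smyd2, a methyltransferase that represses p53, fell from 11.8 ± 0.404 to 4.39 ± 0.535 FPKM (log2 difference -1.25). Of 9 genes that bind p53 or are named for it, 5 were higher and 4 lower (median 0.13). Trp53inp1, a p53-induced nuclear protein and itself a p53 target, fell from 40.4 ± 1.56 to 3.15 ± 0.120 FPKM (log2 difference -3.32, limma adjusted p = 2.26e-08), further than Trp53.

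For comparison, all 20 genes of a list of p53 targets without Mdm2 and Ppm1d were lower, with a median log2 difference of -2.34. Of all tested genes 31.3% were called lower. The list was written with these results known and is no independent evidence of its direction. Eda2r, a death-domain receptor of the tumour necrosis factor family, had the largest difference, -4.14, followed by Psrc1, a spindle protein gene, at -3.48 and Phlda3, an inhibitor of Akt signalling, at -3.46. Mdm2 at -1.77 lay nearer to 0 than the median of this list, and Ppm1d at -0.16 near its weakest members.

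**Figure D4:**
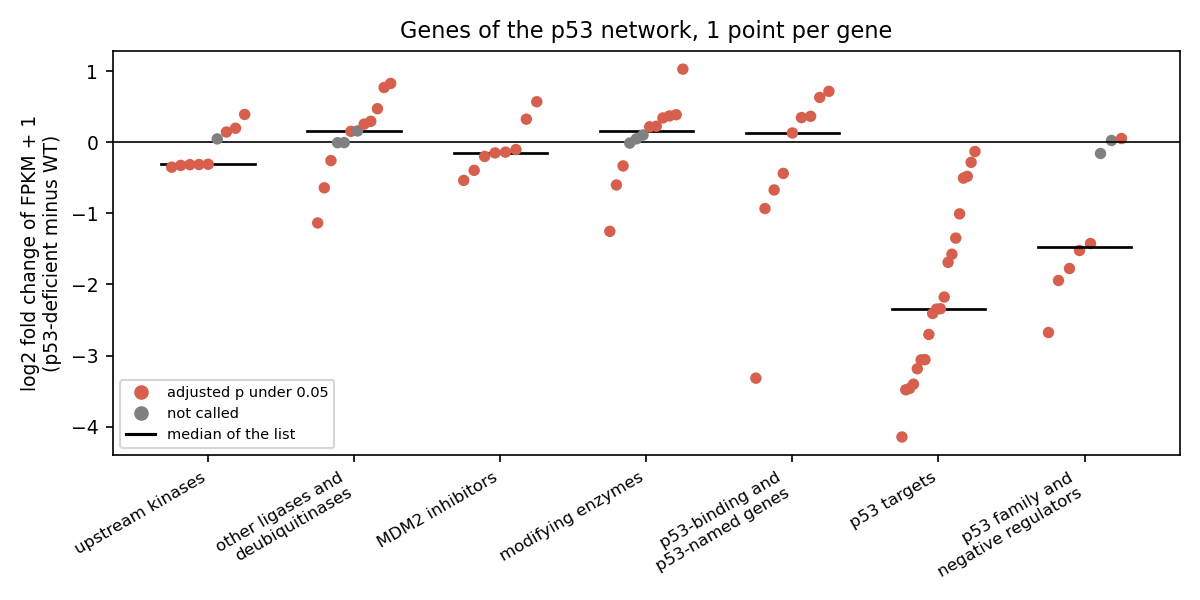
Fitted difference of log2(FPKM + 1), p53-deficient minus WT, for each tested gene of 6 lists and for the 8 tested members (last column), red where the adjusted p was under 0.05 and grey elsewhere, with bars at list medians. The regulator lists spread on both sides of 0 with medians from -0.31 to 0.16, while the p53 targets all lie below 0 with a median of -2.34.

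The genes whose profile over the 6 libraries was most like that of a member were sought among 12247 tested protein-coding genes, by Euclidean distance between profiles of log2(FPKM + 1), each centred on its own mean. For Trp53 they were Slc5a1, a sodium-glucose cotransporter (distance 0.0883), Col1a1, a chain of type I collagen (0.0956), and Lrp1, a lipoprotein receptor (0.0982). Col1a1 went from 210 ± 4.45 to 30.9 ± 0.860 FPKM, 14.7% of WT where Trp53 was at 14.4%. Nearest to Mdm2 were Pcsk6 (0.0748), Ltbp2 (0.0830) and Lhfp (0.0882). Mdm4 had Pltp (0.0518), Alpl (0.0744) and Rmc1 (0.0761), and Trp73 had Rftn1 (0.0844), Col9a2 (0.0911) and Elf3 (0.0948). Since the groups differ in so many genes, a small distance mainly states a like difference between the groups on the log2(FPKM + 1) scale. With the pseudocount, the percentages left can still be unlike. Slc5a1 went from 7.91 ± 0.524 to 0.343 ± 0.0266 FPKM, and Elf3, near Trp73, from 26.2 ± 0.530 to 8.34 ± 0.407 FPKM.

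Markers of other cells moved with the lower members. The 20 fibroblast markers, genes of collagen matrix and stroma, were summed at 18.9% of the WT level in p53-deficient libraries, and the median of the single genes was 14.7% of WT, with a range of 7.85% to 44.4%. None was at 0 reads in all libraries of a group, though S100a4 had 2 reads over the p53-deficient libraries against 22 in WT. Of the fibroblast markers 18 of 18 tested were called lower, against 31.3% of all tested genes. The largest differences were those of Lox at -3.37, Col5a2 at -2.78 and Col3a1 at -2.75. Reads of the Y-linked genes Ddx3y, Eif2s3y, Kdm5d and Uty numbered 1161 in WT and 103 in p53-deficient libraries, with a summed level of 3.51 to 3.94 FPKM against 0.330 to 0.395 FPKM. The levels left in p53-deficient libraries, 14.4% for Trp53, 6.53% for Trp53-ps, 7.04% for Trp73, 27.8% for Mdm2 and 33.6% for Mdm4, can be set beside these lists. Trp53, Mdm2 and Mdm4 fall within the fibroblast range. By mean FPKM, Trp53-ps and Trp73 fall below it, but their read intervals, up to 10.4% and 9.53%, reach into it. Trp53, Trp53-ps and Trp73 fall within the range of the 4 Y-linked genes, 5.78% to 21.5%. The ends of that range rest on 6 reads of Uty and 24 of Kdm5d in p53-deficient libraries. The 20 p53 targets had a median of 16.7% of WT and a range of 1.65% to 91.0%, which also holds the levels of all the lower members. The part of fibroblast RNA in the values of the members was not tested. Of 10 embryonic stem cell markers 4 were higher, 5 lower and 1 not called (2, 6 and 2 with the median scaling), with Utf1 at 2.28, Dppa5a at -0.90 and Esrrb at 0.88 the largest differences. Wrap53, Usp7 and Ppm1d were at 102%, 104% and 88.6% of WT in the same libraries.

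**Figure D5:**
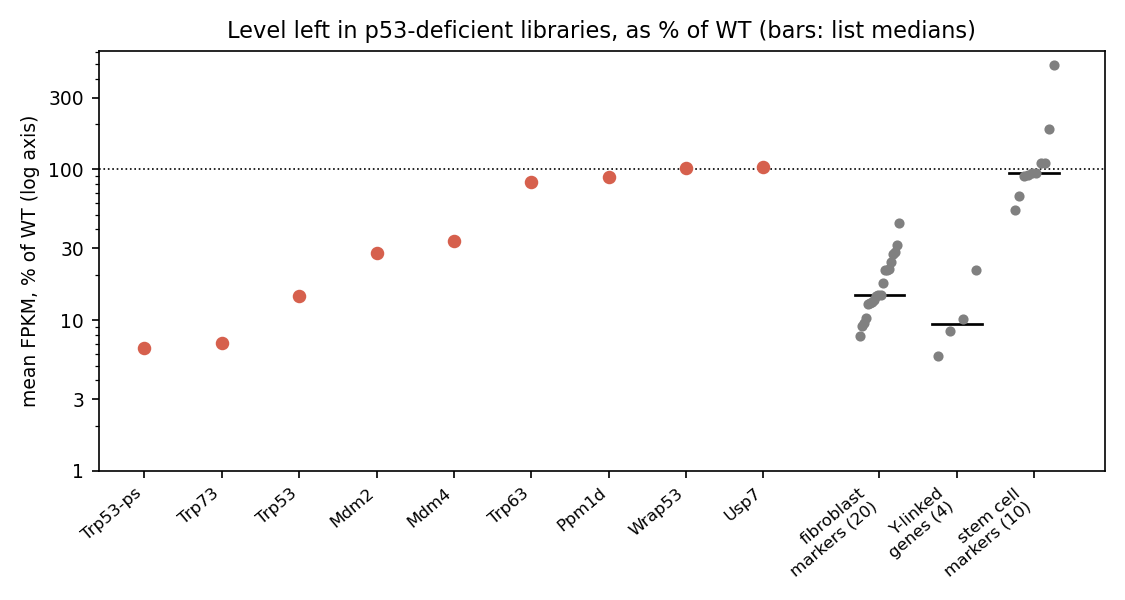
Mean FPKM of p53-deficient libraries as a percentage of the WT mean on a log axis, for each of the 9 genes (red) and for each gene of 3 marker lists (grey, bars at list medians), with a dotted line at 100%. Trp53 at 14.4% lies beside the fibroblast median of 14.7%, Trp53-ps and Trp73 lie lower at 6.53% and 7.04%, and Wrap53 and Usp7 lie near 100% together with most stem cell markers. The p53 targets, not drawn here, had a median of 16.7%.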

How the data were processed

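Poly(A)-selected RNA was measured in 3 WT and 3 p53-deficient libraries. The authors deposited FPKM for every gene in every library. The submitters' processing notes name mm10, HISAT2 2.0.5 and featureCounts 1.5.0-p3 without their roles. FPKM times gene length gave whole multiples of 1 step per library in 100% of values above 0 (tolerance 0.001), from which reads were rebuilt. Genes of mean FPKM at least 0.5 were compared as log2(FPKM + 1) by limma 3.58.1 (R 4.3.3; eBayes with a variance trend, both sides, Benjamini-Hochberg over 15144 genes). Ratios were tested by exact permutation. Replicates of a group differed by more than sampling noise (chi-square per degree of freedom 1.86 to 2.84), and each was counted as 1 sample. Coordinates of all 9 genes were the same in GENCODE M21, whose transcripts were compared with Biopython 1.88 and BLAST+ 2.17.0. The fit was tested on simulated data in which a small part of the genes, all of at least 5 FPKM, were changed. That setting differs from these data, where 66.5% of tested genes were called, and does not cover changes of lower genes. Plots used matplotlib 3.10.9 (Python 3.11.15).

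The members, lists and tests were chosen with earlier results of these data known. The text names the 9 members, regulators called with a fitted difference of at least 1 in log2(FPKM + 1) or else the largest change in their list, the 3 largest changes among targets, fibroblast and stem cell markers, the Y-linked genes, and the 3 nearest profiles of Trp53, Mdm2, Mdm4 and Trp73. Mdm4-ps and Trp73os were added as copies or overlaps of members, and Daxx and S100a4 after their values were seen. Other settings tried were quantile normalization, scaling by the median log2 ratio, a pseudocount of 0.1, a mean of at least 5 FPKM or no filter, a fit without variance trend, the replicate number as a block, voom weights on rebuilt reads, and each library left out in turn.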

Additional observations from a re-analysis of the deposited data

How the results depend on the processing

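Trp53, Mdm2 and Mdm4 were called lower in all 15 settings, and Trp53-ps and Trp73 in the 14 that tested them, with log2 differences of -2.82 to -2.65, -1.88 to -1.75, -1.59 to -1.39, -3.99 to -1.84 and -3.80 to -1.42 in that order. With a mean of at least 5 FPKM, 3 members were called in place of 6, since Trp53-ps and Trp73 were no longer tested and Usp7 missed the threshold, and 3 upstream kinases in place of 8, with 4 of 9 tested. The Usp7 difference of 0.06 missed the threshold with no filter (adjusted p = 0.0536), with a mean of at least 5 FPKM (0.0537), with no variance trend (0.144), with the replicate block (log2 difference 0.0557, adjusted p = 0.0967) and with voom weights (log2 difference 0.0331). It turned to -0.0419 with median scaling (by the median log2 ratio) and to -0.0288 with quantile normalization, and ranged from 0.0503 to 0.0637 with single libraries left out. Wrap53 turned to -0.0689 and -0.0361 under the same scalings and ranged from -0.00996 to 0.0661 with single libraries left out, negative without WT replicate 1. Ppm1d passed with median scaling (-0.247), with voom weights (-0.214) and without p53-deficient replicate 2, and ranged from -0.232 to -0.0931 with single libraries left out. The causes of the changes of Usp7, Wrap53 and Ppm1d were not tested. The labels do not say whether a replicate number marks a shared culture. Correlations of same-numbered deviations were -0.0328, 0.0142 and 0.00556, and those of different numbers ran from -0.0359 to 0.0294. With 3 libraries per group these values cannot decide whether samples were paired. The replicate block gave 5187 genes higher and 4579 lower against 5341 and 4733 without it. The 3 ratios kept their direction with 0.1 FPKM added and with each library left out, the settings run for them. With any WT library left out, the exact permutation test gave p = 0.2 for Trp53-ps to Trp53 and for Mdm4 to Mdm2. The smallest possible p was 0.1 there. With 13 and 46 reads left, depth limits the p53-deficient levels of Trp53-ps and Trp73. Both passed the main filter on low values through their WT level alone.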
